A study of Mus musculus with 12 samples.

Results

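The collagen chains are the proteins, written Col followed by a type and a chain number, that assemble into the collagens of the extracellular matrix. Genes were chosen by symbol, whatever their values: 44 of the 19938 genes measured on the arrays have such a symbol and a probe set that matches no other gene. They were sorted by structure into 11 fibrillar chains, 6 basement membrane chains (all of type IV) and 27 other chains. For Col6a5 and Col6a6, which have more than 1 probe set, the brighter was used.

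Transcript levels came from 12 arrays (Affymetrix Mouse Gene 1.0 ST) that cover 5 kinds of cultured mouse cell. Astrocyte iPSCs (2 arrays) are mature induced pluripotent stem cells from Sox1-GFP reporter (Sox1+/-) astrocytes. MEF iPSCs (2 arrays) are an established line made from mouse embryonic fibroblasts of a Nanog-GFP-IRES-Puro reporter, so source cell and reporter both separate the iPSC groups. Day 6 cells (3 arrays) were sorted as Sox1-GFP-positive at day 6 after postnatal day 3 cortical astrocytes of the Sox1-GFP reporter (Sox1+/-) received retroviral Oct4, Klf4, Sox2 and c-Myc. Neural stem cells (2 arrays) came from the telencephalon of Sox1-GFP reporter (Sox1+/-) embryos of day 12.5 to 14.5 and grew with bFGF and EGF in N2 medium. Astrocytes (3 arrays) are the uninfected cultures of the same postnatal day 3 cortex, sorted as Sox1-GFP-negative, with 10% serum. Cells in reprogramming had 15% serum and 1000 U/ml LIF. Both iPSC groups grew on a feeder layer, MEFs stopped with mitomycin C, in 15% serum or serum replacement and 1500 U/ml LIF. The labels do not say whether feeder cells were removed before RNA was extracted. Replicates are called biological by the submitters but are not tied to separate animals or cultures, so each p-value reflects only the spread among these samples, part of which may be technical. Medium, sort and feeders differ along with cell type, and their parts cannot be told apart.

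Collagens are trimers of alpha chains wound into a triple helix. Fibrillar chains (types I, II, III, V, XI, XXIV and XXVII) build the banded fibres of connective tissue. Type IV chains form the sheet-like network of basement membranes, which in the brain underlie the pial surface and surround blood vessels. The other chains decorate fibrils (FACITs such as type XII), form beaded filaments (type VI) or short-chain networks (type VIII), release a fragment named endostatin (type XVIII) or span the cell membrane. Fibroblasts, the cells from which MEF feeders are made, are known for making types I, III, V and VI.

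The genes of type IV sit in pairs that are read in opposite directions from a common region, and the chains of such a pair have separate values here. Col4a1 (chr8:11198423-11312889) and Col4a2 (chr8:11312805-11449287) encode the chains of the common type IV network and overlap at their starts. Col4a5 (chrX:141475370-141689236) and Col4a6 (chrX:141165403-141474095) encode chains of more restricted basement membranes. All 44 chains matched a RefSeq gene on GRCm38.p6, from which these positions come. The windows of 300 bases around the transcript starts of these 4 genes, from 250 bases before to 50 bases after the start, are shown because both members of each pair are described together throughout. Sequences are from RefSeq on GRCm38.p6 and run 5′ to 3′ on the strand of each gene. The windows are chr8:11312777-11313076 (minus strand) for Col4a1, chr8:11312555-11312854 (plus) for Col4a2, chrX:141475169-141475468 (plus) for Col4a5 and chrX:141474027-141474326 (minus) for Col4a6. Capitals mark matches to the CCAAT box (CCAAT) and the GC box (GGGCGG), each searched on both strands, so that a match to the opposite strand reads ATTGG or CCGCCC.
Col4a1: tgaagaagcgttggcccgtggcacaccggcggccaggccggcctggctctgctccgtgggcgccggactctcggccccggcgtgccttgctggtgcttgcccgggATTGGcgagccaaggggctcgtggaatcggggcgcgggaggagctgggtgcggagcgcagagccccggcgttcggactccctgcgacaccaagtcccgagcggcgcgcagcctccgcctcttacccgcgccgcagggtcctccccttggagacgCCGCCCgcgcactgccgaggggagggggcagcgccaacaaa
Col4a2: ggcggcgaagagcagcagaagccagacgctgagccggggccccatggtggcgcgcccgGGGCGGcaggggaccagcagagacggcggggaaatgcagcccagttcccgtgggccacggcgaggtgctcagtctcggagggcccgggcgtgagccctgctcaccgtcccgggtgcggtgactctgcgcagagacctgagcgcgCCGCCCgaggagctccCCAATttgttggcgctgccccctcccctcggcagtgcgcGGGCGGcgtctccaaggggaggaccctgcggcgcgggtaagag
Col4a5: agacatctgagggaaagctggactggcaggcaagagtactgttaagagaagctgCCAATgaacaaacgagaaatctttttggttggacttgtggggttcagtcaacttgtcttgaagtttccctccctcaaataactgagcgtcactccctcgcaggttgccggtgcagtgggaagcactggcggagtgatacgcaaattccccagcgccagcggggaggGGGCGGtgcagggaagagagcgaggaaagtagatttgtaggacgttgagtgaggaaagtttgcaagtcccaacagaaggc
Col4a6: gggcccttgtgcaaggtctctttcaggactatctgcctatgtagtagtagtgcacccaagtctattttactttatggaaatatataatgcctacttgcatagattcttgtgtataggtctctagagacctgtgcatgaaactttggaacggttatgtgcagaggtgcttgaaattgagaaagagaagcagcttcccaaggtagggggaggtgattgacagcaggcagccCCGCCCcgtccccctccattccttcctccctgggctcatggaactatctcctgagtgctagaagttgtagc

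The transcript starts used for the windows of Col4a1, Col4a5 and Col4a6 lie inside the gene spans given above, not at their ends. Those of Col4a1 and Col4a2 lie 21 bases apart and their windows share 78 bases. The transcript starts of Col4a5 and Col4a6 lie 1343 bases apart and their windows share none. The Col4a1 window held 1 CCAAT box and 1 GC box. The Col4a2 window held 1 CCAAT box and 3 GC boxes. The GC box of the Col4a1 window is also 1 of these 3, the same bases read on the other strand. The Col4a5 window held 1 of each, and the Col4a6 window held 1 GC box and no CCAAT box. No window of these 4 held the TATA box letters TATAAA. Windows were given for 35 collagen genes (38 windows). Of these 38, 13 (34.2%) held CCAAT, against 37.4% of 32851 promoters of the genome. GGGCGG was in 23 of 38 (60.5%), against 35.7% of all promoters, and TATAAA in 5 of 38 (13.2%), against 13.6%. A match describes letters in a window and is not evidence of binding.

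Values are log2 of intensity, and a difference of 1 is a doubling. A chain was called where limma's Benjamini-Hochberg adjusted p over all genes was under 0.05 and the difference at least 1. Where chains are counted at an unadjusted p, the share of all genes at that p was not counted. Array medians lay between 6.61 and 6.71, and replicates of a group correlated at r of 0.992 to 0.996 over probe sets. The labels were checked against fixed marker lists. All 8 pluripotency genes were called higher in astrocyte iPSCs and all 8 in MEF iPSCs than in day 6 cells. Of 9 astrocyte genes 7 were called lower in day 6 cells than in astrocytes, and Gfap, the intermediate filament of astrocytes, read 6.32 to 6.41 in day 6 cells, against 12.10 to 12.65 in astrocytes. Of 7 neural stem cell genes 4 were called lower in day 6 cells than in neural stem cells. The same list had 1 gene higher and 1 lower in neural stem cells than in astrocytes. In such bulk samples fewer cells of a type and less RNA per cell cannot be told apart.

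Over the 5 groups, 15 of 44 collagen chains differed, by an F test with a spread of group means of at least 1, against 31.9% of all genes. That is 34.1% of the chains, near the share of all genes. The 15 were 5 of 11 fibrillar chains (Col1a1, Col1a2, Col3a1, Col5a2 and Col11a1), 4 of 6 basement membrane chains (Col4a1, Col4a2, Col4a5 and Col4a6) and 6 of 27 other chains (Col6a1, Col6a2, Col6a3, Col8a1, Col12a1 and Col18a1). The median spread of group means was 1.34 for the basement membrane chains, 0.50 for the fibrillar chains and 0.26 for the others, against 0.58 over all genes. Of the 15, 7 had their highest group mean in astrocyte iPSCs, 1 in MEF iPSCs (Col4a2) and 7 in astrocytes. None of the 15 was highest in day 6 cells or neural stem cells. The 29 chains not called spread by 0.06 to 0.65, and 5 of them had an adjusted p under 0.05 (Col4a3, Col4a4, Col5a1, Col6a5 and Col8a2). Their values lay between 5.50 and 8.13.

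**Figure D1:**
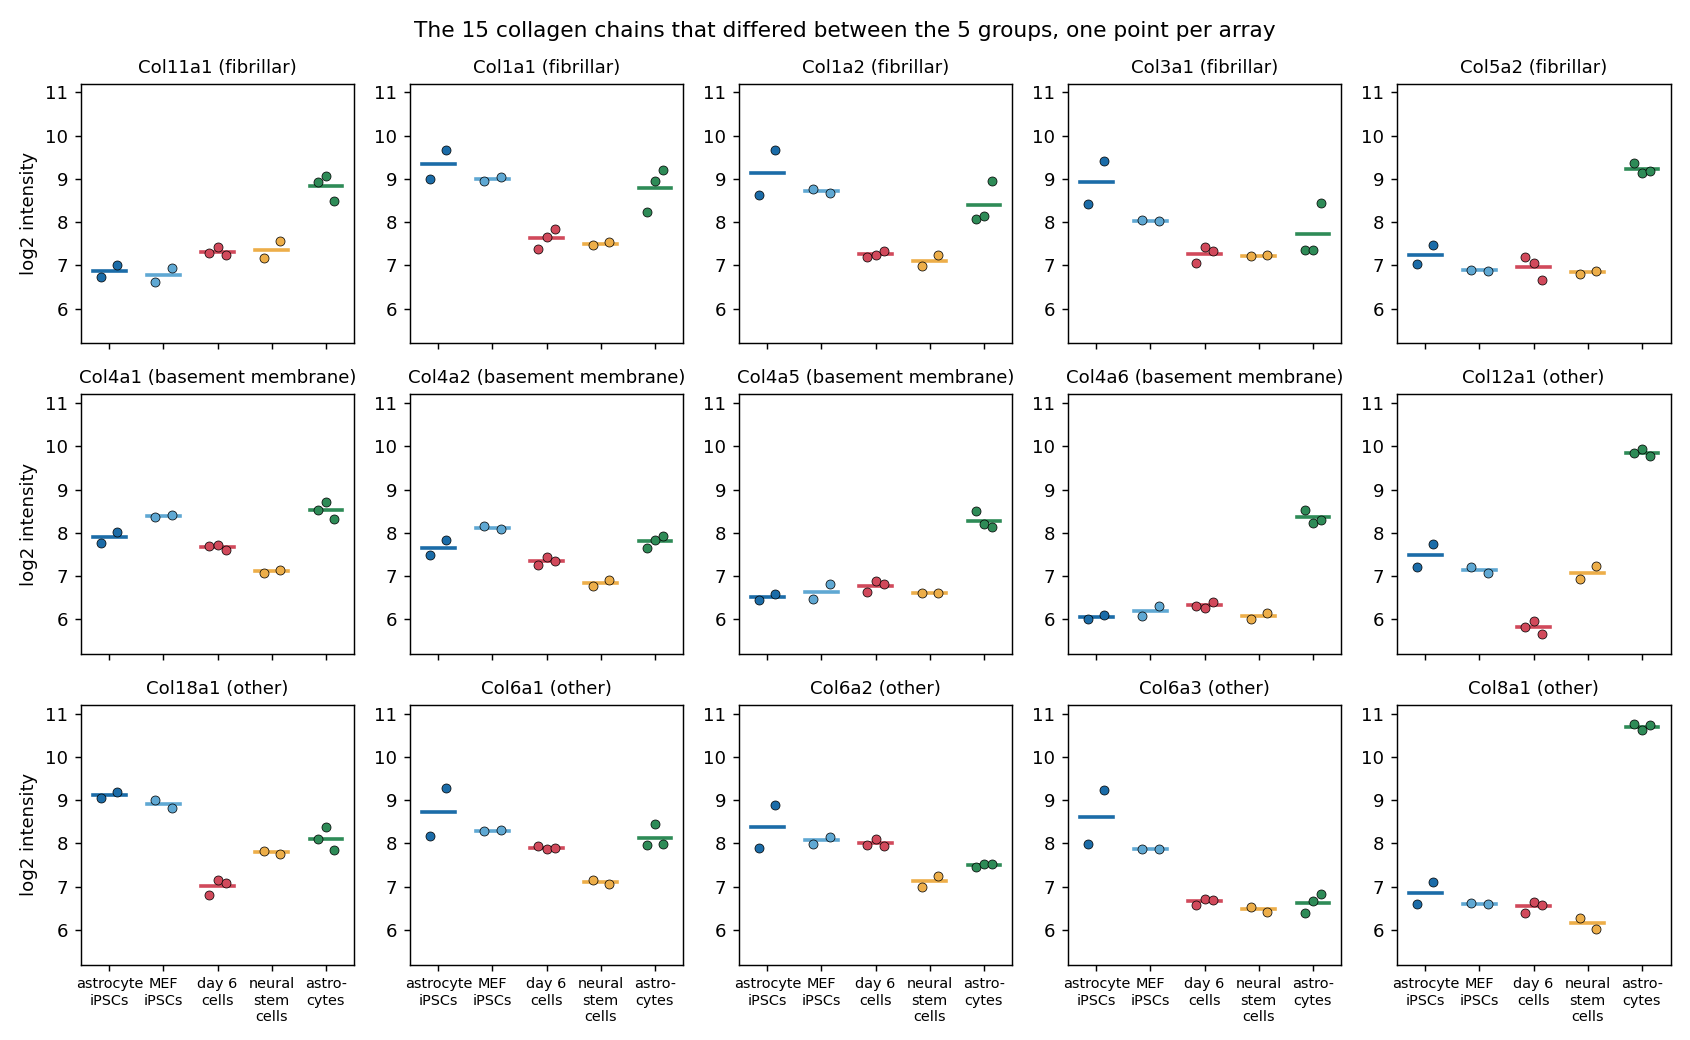
Log2 intensity of the 15 collagen chains that differed between groups, with 1 point per array, a bar at each group mean, and panels in the order fibrillar, basement membrane, other. Col8a1, Col12a1, Col5a2, Col11a1, Col4a5 and Col4a6 stand highest on the 3 astrocyte arrays, and Col18a1 and Col6a3 on the 4 iPSC arrays.

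**Figure D2:**
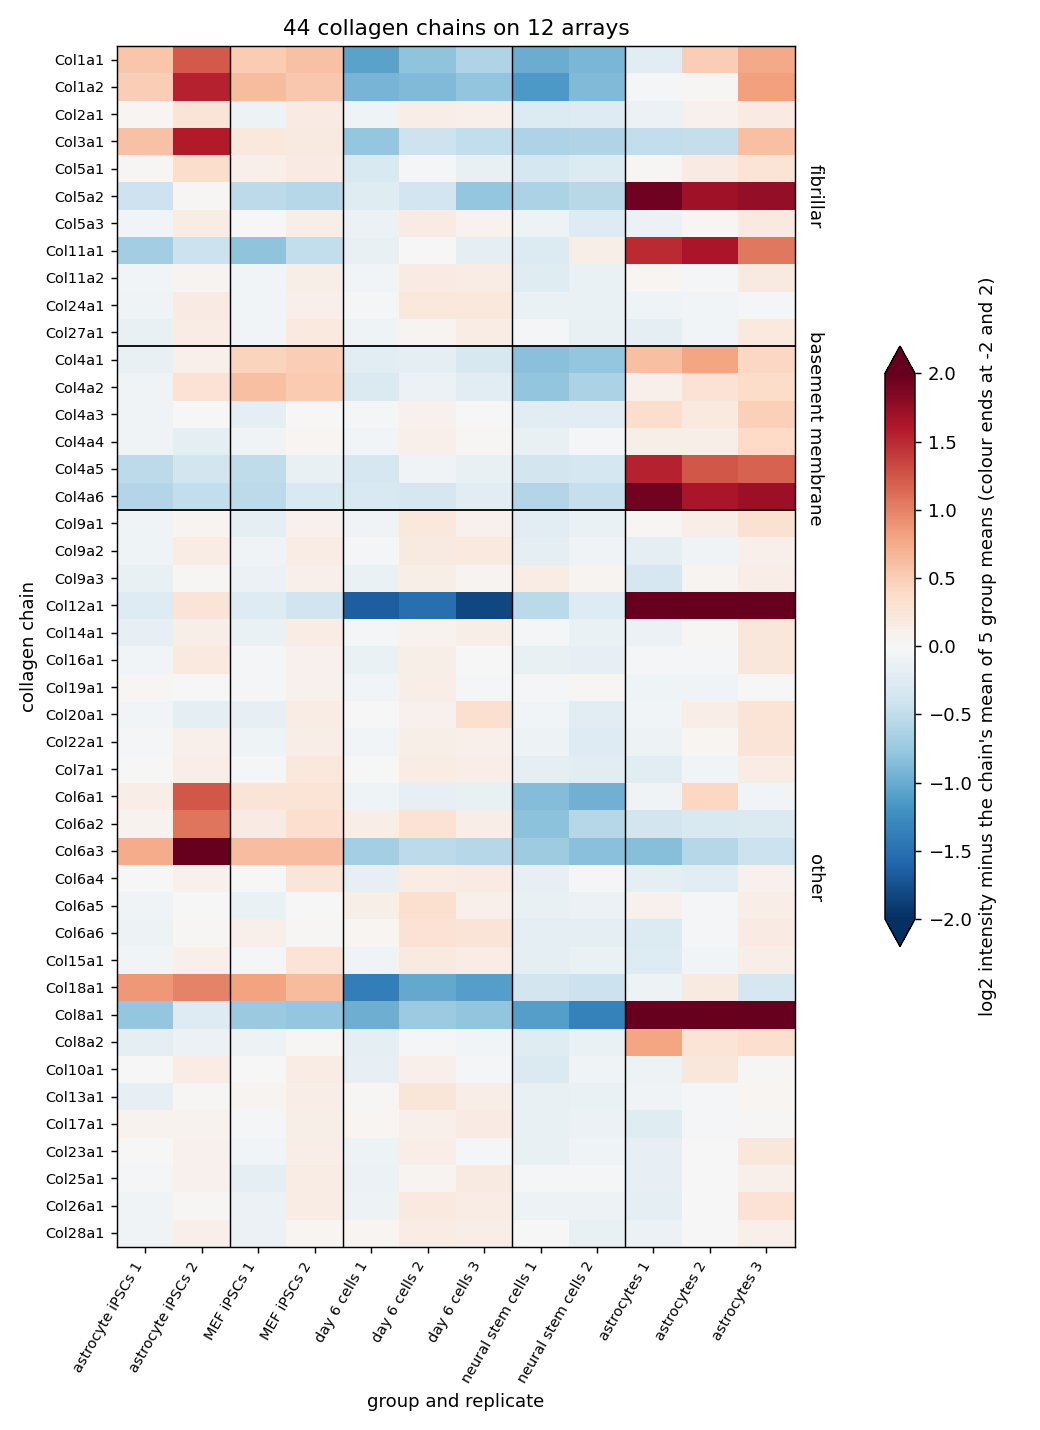
Each row is 1 of the 44 collagen chains and each column 1 of the 12 arrays, and colour gives the log2 intensity minus the mean of the 5 group means of that chain, with the scale ending at -2 and 2. Most of the rows in the block of other chains are pale, and the strong colours sit in the 15 chains that differed.

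Col8a1 and Col12a1 were the collagens with the largest differences between day 6 cells and astrocytes, both lower in day 6 cells. Altogether 9 of 44 chains fell in day 6 cells, against 10.1% of all genes called lower. None rose, against 6.75% of all genes called higher, while 4 chains were above astrocytes at an unadjusted limma p under 0.05. The fall took in 4 of 11 fibrillar chains, 2 of 6 basement membrane chains and 3 of 27 others. The median log2 fold change was -0.31 for fibrillar, -0.65 for basement membrane and 0.05 for other chains, against 0.04 over all genes. Day 6 cells were selected by a reporter, so the choice of cells and change inside them cannot be told apart.

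Col8a1 (chr16:57624256-57754737), a short-chain collagen of the vessel wall and the corneal basement membrane, read 6.40, 6.64 and 6.59 in day 6 cells, against 10.75, 10.62 and 10.73 in astrocytes. It was 17.8-fold lower (log2 fold change -4.16 ± 0.12 SE, limma adjusted p = 2.529e-10). Col12a1 (chr9:79598987-79721141), a FACIT that binds to type I fibrils, read 5.83, 5.97 and 5.65 in day 6 cells, against 9.85, 9.94 and 9.77 in astrocytes. It was 16.4-fold lower (-4.03 ± 0.13, adjusted p = 6.134e-10). The arrays of the groups were far apart for both. The partner of Col8a1 in type VIII collagen, Col8a2, had a log2 fold change of -0.55 and was not called.

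Among fibrillar chains, Col5a2 (chr1:45374331-45503282), a chain of type V that helps to set fibril diameter, read 7.19, 7.05 and 6.66 in day 6 cells, against 9.37, 9.13 and 9.19 in astrocytes. Its log2 fold change was -2.27 ± 0.14 (limma adjusted p = 7.706e-08). Col11a1 (chr3:114030479-114220756), a chain of type XI, which is best known from cartilage, read 7.29, 7.44 and 7.23 in day 6 cells, against 8.93, 9.07 and 8.49 in astrocytes (-1.51 ± 0.16). Neither chain overlapped between the groups. Col5a1, the partner of Col5a2 in type V, had a log2 fold change of -0.31 and was not called.

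Type I is the main collagen of most fibrils, and both of its chains fell. Col1a1 (chr11:94936224-94953042) read 7.39, 7.65 and 7.85 in day 6 cells, against 8.23, 8.95 and 9.21 in astrocytes (-1.16 ± 0.23, limma adjusted p = 0.001191). Col1a2 (chr6:4505618-4541543) read 7.20, 7.25 and 7.34 in day 6 cells, against 8.08, 8.15 and 8.94 in astrocytes (-1.13 ± 0.26, adjusted p = 0.002908). The groups did not overlap for either chain, and astrocyte replicate 3 was the highest for both. Without that array the differences were -0.96 for Col1a1 and -0.86 for Col1a2, short of the limit of 1, with adjusted p of 0.005154 and 0.009832. Col3a1 (chr1:45311538-45349706), the type III chain of elastic tissues, read 7.06, 7.42 and 7.34 in day 6 cells, against 7.35, 7.36 and 8.44 in astrocytes, and the groups overlapped. Its log2 fold change of -0.44 was not called (adjusted p = 0.2535).

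Astrocyte replicate 3 exceeded the mean of the other astrocyte arrays by at least 0.5 for Col3a1 (by 1.09), Col1a2 (by 0.82) and Col1a1 (by 0.62). These are 3 of 44 chains, against 0.466% of all genes. Decorin (Dcn), a proteoglycan of fibroblasts that binds collagen fibrils, read 8.48 on that array, against 6.88 and 6.81 on the others. The gelatinase Mmp2 read 8.14 there, against 7.26 and 7.24. Of 10 genes of collagen breakdown, 2 were higher by that amount, Mmp2 among them. Of 16 genes of collagen synthesis, 10 of processing and cross-linking and 7 collagen receptors, none was. Of the list of 17 fibroblast and feeder genes, which holds no collagen, 1 gene (Dcn) was higher by that amount, while periostin (Postn) was lower there (6.20, against 6.94 and 6.71). Of the 10 pericyte and endothelial genes, 1 was higher by that amount, the endothelial cadherin Cdh5 (7.01, against 6.15 and 6.31). So were 2 of 8 pluripotency genes and 1 of 9 astrocyte genes. Of the 8 meningeal, 11 extraembryonic endoderm and 7 neural stem cell genes, none was. Col11a1 was lower on that array by 0.51.

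Type IV split by gene pair. Col4a6 read 6.30, 6.27 and 6.39 in day 6 cells, against 8.53, 8.24 and 8.31 in astrocytes (-2.03 ± 0.09, limma adjusted p = 5.372e-09). Its neighbour Col4a5 read 6.64, 6.90 and 6.81 in day 6 cells, against 8.51, 8.20 and 8.14 in astrocytes (-1.50 ± 0.12, adjusted p = 5.227e-07). Both were low on every day 6 array and did not overlap with astrocytes. Col4a1 read 7.71, 7.72 and 7.60 in day 6 cells, against 8.52, 8.71 and 8.33 in astrocytes. Its difference of -0.84 ± 0.10 passed the p (1.544e-05) and not the limit of 1. Col4a2 read 7.26, 7.43 and 7.35 in day 6 cells, against 7.66, 7.84 and 7.92 in astrocytes (-0.46 ± 0.10), and was not called either. Col4a3 and Col4a4, a pair of chains known from the kidney filter, had log2 fold changes of -0.32 and -0.19 and were not called. Col4a4 stayed too dim for the filter on low values that 39 of the 44 chains passed. The others that did not pass it were Col10a1, Col14a1, Col19a1 and Col28a1.

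Col18a1 (chr10:77052178-77166530), the source of endostatin and a component of basement membranes, read 6.80, 7.16 and 7.09 in day 6 cells, against 8.09, 8.38 and 7.85 in astrocytes. It fell by 1.09 on the log2 scale (SE 0.13, limma adjusted p = 1.864e-05). Leaving out astrocyte replicate 2 or day 6 replicate 1 brought the difference to -0.96 and -0.99, short of the limit. The type VI chains were not called in this comparison, with log2 fold changes of -0.23 for Col6a1, 0.51 for Col6a2 and 0.03 for Col6a3.

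The enzymes and receptors that go with collagen were taken from fixed lists. Of 16 genes for making and folding chains, 4 fell in day 6 cells relative to astrocytes and none rose. These were P4ha3 and P4ha1, prolyl 4-hydroxylase subunits that stabilise the triple helix (log2 fold changes -5.01 and -2.51), the prolyl 3-hydroxylase P3h2 (-4.27), which acts on type IV chains, and the lysyl hydroxylase Plod1 (-1.08). Of 10 processing and cross-linking genes, 4 fell and 2 rose. The largest were the enhancer of procollagen processing Pcolce2 (2.68), the cross-linking oxidases Lox (-1.98) and Loxl3 (-1.87), and Bmp1, which cuts the C-terminal propeptide (-1.73). Of 7 collagen receptors, 4 fell: Itga1 (-4.81) and Itgb1 (-1.28), which pair as an integrin for type IV collagen, and the kinases Ddr1 (-3.26) and Ddr2 (-2.04). Of 10 genes of collagen breakdown, 3 fell, namely Timp2 (-5.07), Timp3 (-3.54) and Mmp14 (-1.79), and the inhibitor Timp1 rose (1.08).

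Markers of other cells were set beside this comparison, in which 10.1% of all genes were called lower and 6.75% higher. The meningeal list and the pericyte and endothelial list, with 1 call each, were near these shares. Of the 17 fibroblast and feeder genes, 5 fell in day 6 cells and 1 rose, and the mean of the list was 6.94 to 7.00 in day 6 arrays, against 7.97 to 8.10 in astrocyte arrays. The median log2 fold change of the list was -0.04, so the lower mean rests on few genes. Those that fell were Ogn (-7.21), Thy1 (-4.50), Pdgfrb (-2.84), Fn1 (-2.46) and Postn (-1.12), and S100a4 rose (1.05). Osteoglycin (Ogn), a small proteoglycan of connective tissue, read 4.85, 5.11 and 5.16 in day 6 cells, against 12.37, 12.12 and 12.25 in astrocytes. Of 8 meningeal genes, 1 fell, the transcription factor Foxc1 (6.55 to 7.00 in day 6 cells, against 8.64 to 8.82 in astrocytes). The meningeal list had 1 or 2 of its 8 genes above the array median in day 6 cells and 1 in astrocytes. Of 10 pericyte and endothelial genes, 1 rose and none fell, and 1 or 2 of them were above the array median on the arrays of either group. Their part in the collagen differences was not tested.

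Neural stem cells, which were not derived from the astrocytes, showed 10 of 44 chains lower than in astrocytes, against 8.1% of all genes called lower. None was higher, against 6.49% of all genes, and none had an unadjusted limma p under 0.05 in that direction. The 10 were 4 of 11 fibrillar, 3 of 6 basement membrane and 3 of 27 other chains. The median log2 fold change was -0.47 for fibrillar, -1.19 for basement membrane and -0.16 for other chains, against -0.03 over all genes. This comparison and that of day 6 cells share the astrocyte arrays, so the values stand side by side and are not independent.

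Col8a1 read 6.28 and 6.03 in neural stem cells, against 10.62 to 10.75 in astrocytes, a log2 fold change of -4.55 ± 0.14. Col12a1 read 6.94 and 7.23 in neural stem cells, against 9.77 to 9.94 in astrocytes (-2.77 ± 0.15). Col5a2 read 6.81 and 6.88 in neural stem cells, against 9.13 to 9.37 in astrocytes (-2.39 ± 0.16). For all 3 chains, both neural stem cell arrays lay far below every astrocyte array. Col4a6 had a log2 fold change of -2.28 ± 0.10, Col4a5 of -1.68 ± 0.13 and Col11a1 of -1.47 ± 0.18. Col4a1 was called here, with 7.08 and 7.15 in neural stem cells, against 8.33 to 8.71 in astrocytes (-1.41 ± 0.11, limma adjusted p = 8.09e-07).

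Col4a2 read 6.76 and 6.91 in neural stem cells, against 7.66 to 7.92 in astrocytes. Its difference of -0.97 ± 0.11 stood just short of the limit and passed it without astrocyte replicate 1 or neural stem cell replicate 2 (-1.04 each) and with 16 subtracted before log2 (-1.08). Col1a1 and Col1a2 had log2 fold changes of -1.30 and -1.28, and Col3a1 of -0.49, not called. Col6a1, a chain of beaded filaments, read 7.16 and 7.07 in neural stem cells, against 7.97, 8.45 and 7.98 in astrocytes (-1.01 ± 0.25, limma adjusted p = 0.005155). The arrays did not overlap. Without astrocyte replicate 2 or neural stem cell replicate 2 the difference was -0.86 or -0.97, short of the limit. Col4a3 (-0.57) and Col4a4 (-0.30) were not called. Of the enzyme and receptor lists, 4 synthesis genes, 4 processing genes, 4 receptors and 3 breakdown genes were lower in neural stem cells, and 1 processing gene, the procollagen peptidase Adamts3 (1.34), was higher. The fibroblast and feeder list, with 8 of 17 genes lower and 2 higher, averaged 6.74 and 6.81 in neural stem cells, against 7.97 to 8.10 in astrocytes, and its part was not tested.

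Day 6 cells and neural stem cells differed in a single collagen at the set limits, Col12a1. It read 5.83, 5.97 and 5.65 in day 6 cells, against 6.94 and 7.23 in neural stem cells, a log2 fold change of -1.26 ± 0.15 (limma adjusted p = 4.145e-05). Every day 6 array was below both neural stem cell arrays, and the mean of day 6 cells was the lowest of the 5 groups. That makes 1 of 44 chains lower, against 5.94% of all genes, and 0 higher, against 2.94% of all genes. By limma, 16 chains were higher at an unadjusted p under 0.05, and the share of all genes higher at that p was not counted.

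Most chains read slightly above neural stem cells. Of the 44 chains, 40 had a log2 fold change above 0, and the share of all genes above 0 was not counted. The median was 0.19, against 0.07 over all genes. Without a limit on the fold change 12 of the 44 chains were higher in day 6 cells, against 20.0% of all genes. Col6a2 read 7.95, 8.11 and 7.95 in day 6 cells, against 7.00 and 7.25 in neural stem cells (0.88 ± 0.21), and Col6a1 had a difference of 0.78 ± 0.25. Without neural stem cell replicate 2, Col6a2 passed the limit at 1.00 (limma adjusted p = 0.01688). Col4a1 read 7.71, 7.72 and 7.60 in day 6 cells, against 7.08 and 7.15 in neural stem cells (0.56 ± 0.11), and Col4a2 was 0.51 ± 0.11 higher. The arrays of the groups did not overlap for these 4 chains. Col18a1 went the other way, with 6.80, 7.16 and 7.09 in day 6 cells, against 7.83 and 7.76 in neural stem cells (-0.78 ± 0.14). The type I and III chains had differences of 0.13 (Col1a1), 0.15 (Col1a2) and 0.05 (Col3a1), and the rest of type IV 0.25 (Col4a3), 0.12 (Col4a4), 0.17 (Col4a5) and 0.25 (Col4a6), none of them called.

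Among the related genes, no synthesis gene of 16 was called between day 6 cells and neural stem cells. Of 10 processing genes, Pcolce2 (2.26) and the oxidase Loxl4 (1.31) were higher in day 6 cells and Adamts3 (-1.83) lower. Of 7 receptors, Ddr2, a receptor for fibrillar collagens, was higher (1.06), and Ddr1 (-1.59) and Itga2 (-1.17) were lower. Of 10 breakdown genes, Timp1 (2.48) and Timp3 (1.50) were higher, and Timp2 (-1.51) and Mmp14 (-1.37) lower. The fibroblast and feeder list had 4 genes higher and 2 lower of 17, and the meningeal list none of 8.

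**Figure D3:**
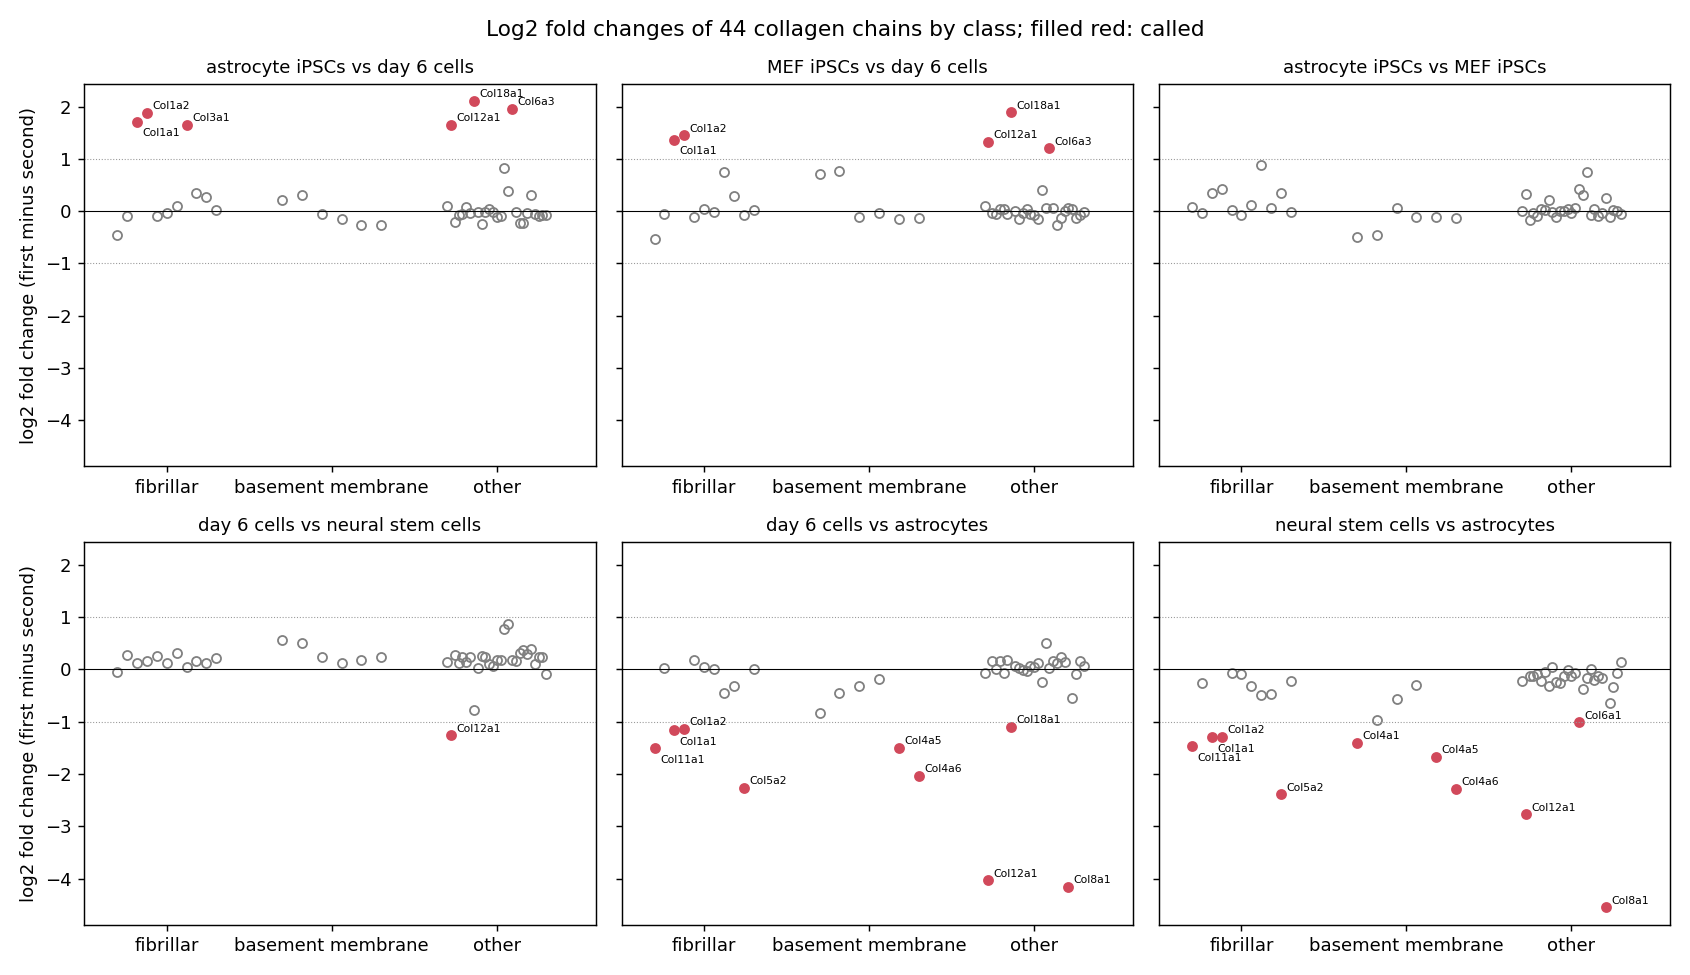
Log2 fold changes, first group minus second, of the 44 collagen chains by class in the 6 comparisons, with filled red points for called chains and dotted lines at -1 and 1. Calls lie above 0 in the comparisons of either iPSC group with day 6 cells, below 0 in those with astrocytes or neural stem cells as the second group, and no chain is called between the iPSC groups.

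Astrocyte iPSCs had higher levels than day 6 cells of Col18a1, Col6a3, both type I chains, Col12a1 and Col3a1. These 6 of 44 chains rose, against 3.29% of all genes called higher. None fell, against 2.82% of all genes, while 4 were lower at an unadjusted limma p under 0.05. The risers were 3 of 11 fibrillar and 3 of 27 other chains, and 0 of 6 basement membrane chains. The median log2 fold change of the 44 chains was -0.02, against -0.03 over all genes. MEF iPSCs rose over day 6 cells in 5 of these 6 chains, all but Col3a1, against 3.18% of all genes called higher. No chain was called lower there, against 2.93% of all genes, and 2 were lower at an unadjusted p under 0.05. Both comparisons share the day 6 arrays.

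Col18a1 read 9.06 and 9.19 in astrocyte iPSCs and 9.00 and 8.82 in MEF iPSCs, against 6.80, 7.16 and 7.09 in day 6 cells. The log2 fold changes were 2.11 ± 0.14 in astrocyte iPSCs (limma adjusted p = 8.758e-07) and 1.89 ± 0.14 in MEF iPSCs (2.257e-06). All 4 iPSC arrays were close together and above every other array of the study. Col12a1 read 7.22 and 7.73 in astrocyte iPSCs and 7.22 and 7.08 in MEF iPSCs, against 5.83, 5.97 and 5.65 in day 6 cells. It rose by 1.66 ± 0.15 in astrocyte iPSCs and by 1.33 ± 0.15 in MEF iPSCs. Its iPSC arrays overlapped with those of neural stem cells and lay below those of astrocytes.

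Col6a3 (chr1:90766860-90844001), the long chain of type VI, read 7.99 and 9.25 in astrocyte iPSCs and 7.87 on both arrays of MEF iPSCs, against 6.57, 6.72 and 6.69 in day 6 cells. Its log2 fold change was 1.96 ± 0.27 in astrocyte iPSCs (limma adjusted p = 1.794e-04) and 1.20 ± 0.27 in MEF iPSCs (0.004962). The second astrocyte iPSC array stood apart from the other 3 iPSC arrays. Leaving it out gave 1.33, and leaving out the first gave 2.58. Astrocytes, at 6.40, 6.68 and 6.83, were as low as day 6 cells. Its partners Col6a1 and Col6a2 had log2 fold changes of 0.83 and 0.38 in astrocyte iPSCs and of 0.40 and 0.07 in MEF iPSCs, none called. Col6a1 passed the limit in astrocyte iPSCs without their replicate 1, at 1.38 (adjusted p = 1.667e-04).

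Col1a2 read 8.62 and 9.66 in astrocyte iPSCs and 8.76 and 8.67 in MEF iPSCs, against 7.20, 7.25 and 7.34 in day 6 cells. It rose by 1.88 ± 0.29 in astrocyte iPSCs (limma adjusted p = 4.104e-04) and 1.45 ± 0.29 in MEF iPSCs (0.00238). Col1a1 read 9.01 and 9.67 in astrocyte iPSCs and 8.95 and 9.03 in MEF iPSCs, against 7.39, 7.65 and 7.85 in day 6 cells. It rose by 1.71 ± 0.26 in astrocyte iPSCs (4.02e-04) and 1.36 ± 0.26 in MEF iPSCs (0.001916). No iPSC array overlapped with day 6 cells for either chain.

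Col3a1 read 8.43 and 9.42 in astrocyte iPSCs and 8.05 and 8.02 in MEF iPSCs, against 7.06, 7.42 and 7.34 in day 6 cells. It rose by 1.65 ± 0.33 in astrocyte iPSCs (limma adjusted p = 0.002389), and the difference of 0.76 ± 0.33 in MEF iPSCs was not called (0.1147). The iPSC arrays did not overlap with day 6 cells. Col5a2, the neighbour of Col3a1 on chromosome 1, had log2 fold changes of 0.28 in astrocyte iPSCs and -0.08 in MEF iPSCs, and Col11a1 of -0.45 and -0.54. Those fibrillar chains, lower in day 6 cells than in astrocytes, were not called in either iPSC group.

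Type IV gave no call against day 6 cells. Col4a1 read 7.77 and 8.02 in astrocyte iPSCs and 8.36 and 8.41 in MEF iPSCs, against 7.71, 7.72 and 7.60 in day 6 cells. Its differences were 0.22 ± 0.11 for astrocyte iPSCs and 0.71 ± 0.11 for MEF iPSCs (limma adjusted p = 0.1823 and 4.319e-04). Col4a2 read 7.48 and 7.83 in astrocyte iPSCs and 8.15 and 8.08 in MEF iPSCs, against 7.26, 7.43 and 7.35 in day 6 cells, with differences of 0.31 ± 0.11 and 0.77 ± 0.11. For both chains the MEF iPSC arrays were above the astrocyte iPSC arrays, and these above day 6 cells. Col4a5 had log2 fold changes of -0.26 in astrocyte iPSCs and -0.14 in MEF iPSCs. Col4a6 had -0.26 and -0.13, Col4a3 -0.06 and -0.12, and Col4a4 -0.14 and -0.04. The pair on the X chromosome read 6.01 to 6.81 on the iPSC arrays and 6.27 to 6.90 in day 6 cells, against 8.14 to 8.53 in astrocytes.

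Of the collagen synthesis genes, none of 16 was called between astrocyte iPSCs and day 6 cells, and 1, the prolyl 4-hydroxylase subunit P4ha2 (1.33), rose in MEF iPSCs. Of 10 processing genes, 3 rose and 2 fell in each iPSC group. Lox rose by 2.28 in astrocyte iPSCs and 1.82 in MEF iPSCs, Pcolce, an enhancer of C-propeptide removal, by 1.73 and 2.01, and Pcolce2 changed by -1.57 and -2.08. No receptor of 7 was called in either. Of 10 breakdown genes, 4 rose and 1 fell in astrocyte iPSCs, and 2 rose and 1 fell in MEF iPSCs. Mmp2, a gelatinase, rose by 2.53 in astrocyte iPSCs and 1.67 in MEF iPSCs, and Timp2, its inhibitor, by 1.98 and 1.55.

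Astrocyte iPSCs and MEF iPSCs showed no called difference in any of the 44 chains. No chain was higher, against 0.461% of all genes, and none lower, against 0.281% of all genes, by limma. At an unadjusted p under 0.05, 2 chains were higher and 2 lower. The largest log2 fold changes were 0.89 ± 0.36 for Col3a1 (adjusted p = 0.2261) and 0.75 ± 0.29 for Col6a3 (0.2099). Without astrocyte iPSC replicate 1, Col6a3 was called at 1.38 (limma adjusted p = 8.489e-04). Col1a1 and Col1a2 had differences of 0.35 and 0.43. Col4a1 and Col4a2 were lower in astrocyte iPSCs, with log2 fold changes of -0.49 ± 0.12 (adjusted p = 0.03638) and -0.45 ± 0.12 (0.05773), both short of the limit. The remaining type IV chains had 0.06 (Col4a3), -0.10 (Col4a4), -0.12 (Col4a5) and -0.13 (Col4a6).

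Array by array, the second astrocyte iPSC array stood above the first in 8 chains by at least 0.5, and in none was it lower by that much. Over all genes 1.21% were higher by that amount, and 135 of 19938 genes were lower by it. The 8 were Col6a3 (by 1.25), Col6a1 (1.10), Col1a2 (1.04), Col3a1 (0.99), Col6a2 (0.99), Col1a1 (0.67), Col12a1 (0.51) and Col8a1 (0.51), that is 3 of 11 fibrillar, 0 of 6 basement membrane and 5 of 27 other chains. The MEF iPSC arrays differed by that amount in 0 of 44 chains. Of all 19938 genes, 58 were higher and 46 lower by it on the second MEF iPSC array. The second astrocyte iPSC array was the highest of the 4 iPSC arrays for 19 of 44 chains, 9 of them fibrillar and none of type IV. The share of all genes highest on that array was not counted. Among the 29 chains with no called difference over the 5 groups, replicate 1 was the lower array for 26 in astrocyte iPSCs and 28 in MEF iPSCs. Col18a1 differed by 0.13 between the astrocyte iPSC arrays.

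The fibroblast and feeder list moved on the same array, and so did the collagen breakdown list. Of the 17 fibroblast and feeder genes, 9 were at least 0.5 higher on the second astrocyte iPSC array than on the first. So were 5 of 10 breakdown, 2 of 10 processing, 2 of 7 receptor and 1 of 7 neural stem cell genes. No gene of the remaining lists was. The median difference was 0.53 for fibroblast and feeder genes, 0.54 for breakdown genes and -0.25 for pluripotency genes. On the second MEF iPSC array no listed gene was higher by that amount. The mean of the fibroblast and feeder list was 7.66 and 8.29 on the astrocyte iPSC arrays and 7.65 and 7.56 on the MEF iPSC arrays. In day 6 cells it was 6.94 to 7.00. It had 11 and 14 of its 17 genes above the array median in astrocyte iPSCs and 11 on each array of MEF iPSCs, against 6 or 7 in day 6 cells. Dcn read 10.48 and 11.26 in astrocyte iPSCs and 10.03 and 9.92 in MEF iPSCs, against 6.31 to 6.54 in day 6 cells. Lumican (Lum), another proteoglycan of collagen fibrils, read 7.36 and 8.63 in astrocyte iPSCs, against 5.87 and 6.13 in MEF iPSCs. Dcn was high on all 4 iPSC arrays relative to day 6 cells. Lum in MEF iPSCs lay below the lowest array median (6.61). Of the 4 iPSC arrays, the second astrocyte iPSC array was the highest for both genes. Of the list, 8 genes rose and 1 fell in astrocyte iPSCs relative to day 6 cells, against 3.29% and 2.82% of all genes. In MEF iPSCs 5 rose and 2 fell, against 3.18% and 2.93% of all genes. The median log2 fold change of the list was 0.94 in astrocyte iPSCs and 0.78 in MEF iPSCs. Between the iPSC groups, 1 of its 17 genes was called higher in astrocyte iPSCs, against 0.461% of all genes, and none lower. The median log2 fold change of the list between them was 0.16. The part of feeder cells in the collagen levels was not tested, and feeder RNA and iPSC RNA cannot be told apart in these samples.

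**Figure D4:**
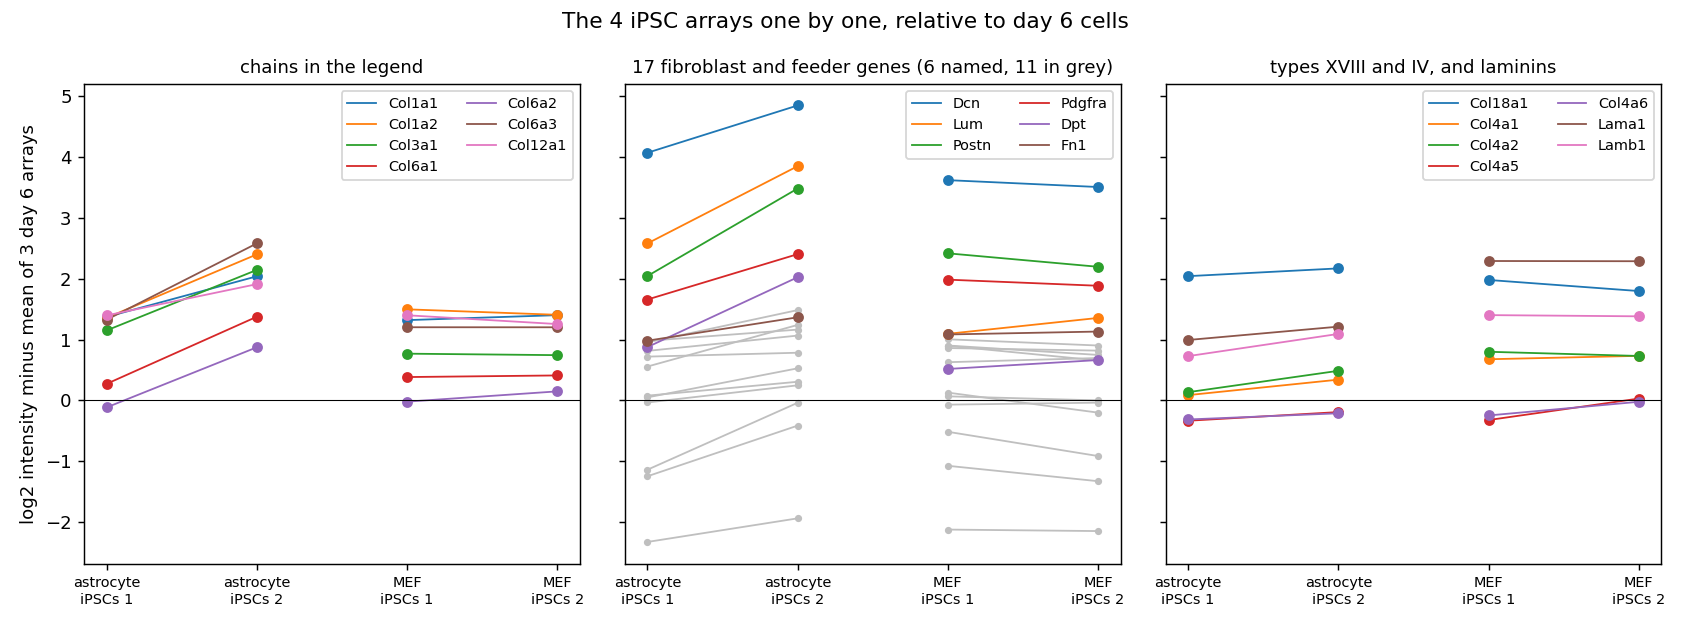
Log2 intensity on each of the 4 iPSC arrays minus the mean of the 3 day 6 arrays, for Col1a1, Col1a2, Col3a1, Col6a1, Col6a2, Col6a3 and Col12a1 (left), the 17 fibroblast and feeder genes (middle, 6 named and 11 in grey) and Col18a1, type IV chains and laminins (right), with lines joining arrays of a group. These 7 chains read higher on the second astrocyte iPSC array than on the first, by 0.51 to 1.25, while Col18a1 differs by 0.13 between those arrays.

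Col4a1 and Col4a2, lower in astrocyte iPSCs than in MEF iPSCs, were set beside another fixed list. A list of 11 extraembryonic endoderm genes averaged 7.60 and 7.74 in astrocyte iPSCs, against 8.07 and 8.03 in MEF iPSCs. Of these genes, 2 were called lower in astrocyte iPSCs and none higher, against 0.281% and 0.461% of all genes. The median log2 fold change of the list was -0.24. Lama1, a laminin chain of early basement membranes, read 8.41 and 8.63 in astrocyte iPSCs, against 9.71 on both MEF iPSC arrays (-1.19, limma adjusted p = 5.623e-05). Dab2, an endocytic adaptor of the endoderm, read 7.47 and 7.68 in astrocyte iPSCs, against 9.77 and 9.84 in MEF iPSCs (-2.23). Both were, like Col4a1 and Col4a2, higher on each MEF iPSC array than on each astrocyte iPSC array. Relative to day 6 cells, 3 genes of the list rose in astrocyte iPSCs and 5 in MEF iPSCs, against 3.29% and 3.18% of all genes. Foxa2, an endoderm transcription factor, went the other way, with 7.87 and 7.86 in astrocyte iPSCs, against 7.09 and 6.93 in MEF iPSCs. The part of such cells in the type IV levels was not tested. No gene of the synthesis, processing, receptor or breakdown lists was called between the iPSC groups.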

How the data were processed

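Total RNA of 12 cell samples in 5 groups was amplified, labelled and hybridised to Affymetrix arrays. The deposited values are probe set intensities on a linear scale, made by the authors with RMA (robust averaging over the probes of a set), per the submitters' processing notes, in a version not given in the sources used here. The design had assumed log2 values, and log2 was taken of the deposited intensity. Intensities ran from 20.2 to 15436, and no lower value exists, so that a constant may have been added, which shrinks differences of dim genes. The number of arrays limits the precision.

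Of 28853 probe sets, 21789 have 1 gene symbol, 1621 several and 5443 none. The brightest single-symbol probe set of each of 19938 genes was kept, without a filter on dim genes. Fits used limma 3.58.1 (lmFit, eBayes) in R 4.3.3 with 1 mean per group (7 residual degrees of freedom), Benjamini-Hochberg adjustment over all genes, and a call at adjusted p under 0.05 and a log2 difference of at least 1. The code was checked on simulated data. Tables were handled with Python 3.11.15 and pandas 2.3.3.

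Groups came from the sample titles. The members, classes, gene lists (synthesis, processing, receptors, breakdown, and markers of fibroblasts and feeders, meninges, pericytes and endothelium, extraembryonic endoderm, astrocytes, neural stem cells and pluripotency) and tests were chosen with earlier results of these data known. Named with full values were up to 6 chains called each way in a comparison with arrays that did not overlap, and all chains of types I, III and IV, and of the related lists up to 4 genes by size of change. Alternatives changed the probe set rule, dim filter, normalization, background, samples fitted, variance model, thresholds and replicates.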

Additional observations from a re-analysis of the deposited data

How the results depend on the processing

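For the chains that the naming rule fixed in each comparison, 1443 values were compared over all alternatives. Of these, 1427 kept their side of the limits, 14 passed them newly and 2 lost the call. Among values called in the main fit or in the alternative, 0 changed sign. Sign changes of values called in neither were not counted. The 2 lost calls were Col1a1 and Col1a2 in day 6 cells against astrocytes without astrocyte replicate 3. Among chains outside that rule, Col18a1 in day 6 cells against astrocytes lost its call without astrocyte replicate 2 (-0.96) or day 6 replicate 1 (-0.99), and Col6a1 in neural stem cells against astrocytes without astrocyte replicate 2 (-0.86) or neural stem cell replicate 2 (-0.97). Averaging probe sets, leaving out dim genes, cyclic loess, 16 subtracted, the 2 groups alone, the trended and robust variance model and an adjusted p under 0.01 kept each count of called chains within 1.5 times. Without a limit on the fold change, 1 chain was higher and 14 were lower in day 6 cells than in astrocytes, 12 were higher and 2 lower in day 6 cells than in neural stem cells, 2 were lower in MEF iPSCs than in day 6 cells, 1 was lower in astrocyte iPSCs than in MEF iPSCs, and 18 were lower in neural stem cells than in astrocytes. Leaving out 1 array at a time gave 0 to 1 chains higher in day 6 cells than in neural stem cells and 0 to 1 higher in astrocyte iPSCs than in MEF iPSCs, 7 to 9 lower in day 6 cells than in astrocytes, 6 to 7 higher in astrocyte iPSCs and 5 in MEF iPSCs than in day 6 cells, 9 to 11 lower in neural stem cells than in astrocytes, and 14 to 15 that differed over the 5 groups. A group left with 1 array was assumed to vary like the others. The deviation of each array from its group mean was correlated over genes between arrays of different groups. Pairs with the same replicate number correlated at -0.0969 to 0.41 (median 0.11, over 0.1 in 11 of 21 pairs). Those with other numbers correlated at -0.41 to 0.32 (median -0.08, over 0.1 in 4 of 36 pairs). In a group of 2 arrays the deviations are exact opposites, so these values are not independent. Not every same-numbered pair was over 0.1, so the numbers were not treated as pairing the arrays. Whether arrays of the same number were handled together is not stated in the labels and was not tested. With a replicate block, 9 chains were lower in day 6 cells than in astrocytes, and no call of the 69 named values changed.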

Other observations

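Among the 29 chains with no called difference, replicate 1 was often the lowest array of its group outside neural stem cells. In astrocyte iPSCs it was lowest for 26 of 29 chains, against 52.6% of all genes. In MEF iPSCs it was lowest for 28 chains, against 47.6% of all genes. In day 6 cells it was lowest for 28 chains, against 40.4% of all genes. In astrocytes it was lowest for 22 chains, against 36.7% of all genes. In neural stem cells it was lowest for 17 chains, against 55.4% of all genes. The median gap of replicate 1 to the other arrays of its group, on the log2 scale, was -0.13 for these chains and -0.01 for all genes in astrocyte iPSCs, -0.18 and 0.01 in MEF iPSCs, and -0.20 and -0.01 in day 6 cells. It was -0.02 for both in neural stem cells, and -0.21 and -0.002 in astrocytes. The cause was not tested.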
